A study of Mus musculus with 6 samples.

Results

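The miRNAs described here are those whose mouse name carries a number of 5000 or higher (mmu-miR-5100 up to mmu-miR-12201) and that were above 0 in at least 1 library. Of 833 listed features with such a number, 169 met this rule and 664 were listed at 0 in all libraries, out of 1926 features listed and 803 above 0 in the whole table. The set was thus chosen by the name and by an RPM above 0, so detection and level are given as a description. Of the whole set 86 were 5p arms, 66 were 3p arms and 17 carried no arm in the name. miR-6240, miR-6983-5p, miR-7056-5p and miR-7668-3p were singled out with earlier results of these data known.

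Small RNA was sequenced from brain-derived extracellular vesicles of mice, small membrane-bound carriers of RNA and protein that are shed by cells. SE-BDEV 1 to 3 are the libraries of the status epilepticus group, an unbroken seizure state, and CON-BDEV 1 to 3 those of matched controls. All titles carry day 10. The sources used here give no strain, genotype, age or seizure-inducing agent. They also do not state that each library is from its own animal, and the p-values below therefore rest on a spread between libraries that may be technical. In bulk vesicle RNA, fewer vesicles of a cell type and fewer copies per vesicle cannot be told apart. Values are RPM, reads assigned to a miRNA after scaling every library to the same total. Libraries held 4400167 to 9391887 such reads and 532 to 631 miRNAs above 0. The neuronal miR-124-3p was at 6654 to 9540 RPM while no library had a value above 0 for miR-144-3p or miR-451a of red cells. The blood miR-486a-5p, listed jointly with 486b-5p, was at 83.6 to 199 RPM. The liver miR-122-5p (75.0 to 132 RPM) and the muscle miR-206-3p (49.0 to 84.3 RPM) were present. Both libraries numbered 3 stood apart through miR-24-3p, which was at 3544 and 3128 RPM there and listed at 0 in the other 4.

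A miRNA is cut from a hairpin in a longer transcript, by Drosha in the nucleus and Dicer in the cytoplasm, and 1 arm of the hairpin (5p or 3p) is loaded into an Argonaute protein, where the seed, bases 2 to 8, pairs with target mRNAs. In mirtrons splicing replaces the Drosha cut: the hairpin is a short intron, or sits at 1 end of a longer one with a tail that is trimmed away. miRNA numbers are given in order of registration, so the high numbers hold entries that were registered late, mostly from deep sequencing, and many of them have little independent evidence of processing.

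Mature sequences were matched by name to the RefSeq table of GRCm38.p6 for 151 of the 169 miRNAs. Not matched were, of those named below, miR-6540-5p, miR-6970-5p, miR-6983-3p, miR-6983-5p and miR-7682-3p. The first set shows those that carried most of the signal, with the seed in capitals, 5′ to 3′.
miR-6538: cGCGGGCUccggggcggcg
miR-6240: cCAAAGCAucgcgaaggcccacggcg
miR-7080-5p: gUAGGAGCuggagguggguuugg
miR-5129-5p: aUGUGGGGgcauugguauuuuc
miR-7689-3p: uUAGAGCCagacugccuggguuu
miR-7066-5p: uGGGUUGGgaaaugaguagagg
miR-5113: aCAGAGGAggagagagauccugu
miR-7056-5p: uGUGGAGGaggacagagagguu
miR-6769b-5p: cCUGGUGGguggggaagagc
miR-7240-5p: uUGGAGAGgaccgccgucgga
miR-5126: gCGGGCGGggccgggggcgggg
The GC content of miR-6538 was 94.7% and that of miR-5126 was 100%, against a median of 55% over the 151 sequences.

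The 151 sequences held 148 distinct seeds, so they do not form a seed family. In 3 cases a pair of them shared a seed. These pairs are shown because they are the groups among which a common target site could be read.
miR-6926-5p: uCAGUGGGgugagggaugguga
miR-7055-5p: uCAGUGGGuuaucugaguugg
miR-6916-5p: cAGGAGGAuggagaugaguca
miR-6942-5p: uAGGAGGAggggaacauuugc
miR-6993-5p: aGUGGGAGaaacgggugucuguc
miR-7008-5p: uGUGGGAGaugccaggagccguac
miR-6926-5p was seen in both libraries numbered 1, at 14.3 RPM (CON-BDEV) and 12.5 RPM (SE-BDEV), and listed at 0 in the other 4 libraries, whereas miR-7055-5p was above 0 in CON-BDEV 2 alone (1.23 RPM). miR-6916-5p was at 13.4 and 3.31 RPM in CON-BDEV 1 and 2 and also in SE-BDEV 2 (9.01 RPM), and miR-6942-5p at 7.86 RPM in CON-BDEV 2 alone. miR-6993-5p was above 0 in CON-BDEV 3 alone (4.56 RPM), while miR-7008-5p was listed at 0 in SE-BDEV 2 alone and at 2.43 to 3.70 RPM elsewhere. In each pair 1 member was thus confined to a single library. Among the 151, 8 shared a seed with a miRNA of lower number that was above 0, miR-6926-5p and miR-7055-5p (with miR-194-2-3p) and miR-6240 (with miR-330-3p) among them.

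The sequences were rich in G on the 5p side. The 78 5p sequences had a median of 39.6% G, and 51 of them (65.4%) held a run of GGG, against 28.6% G and 74 of 252 (29.4%) in 5p sequences of the other miRNAs above 0. Among 218 high-numbered 5p sequences listed at 0 in all libraries the values were 40.9% G and 129 (59.2%), so the composition was close to that of the undetected entries of the same number range. The 57 3p sequences had a median of 18.2% G and 6 (10.5%) held GGG. The run was looked for in the mature sequence as printed, not in its complement.

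Position relative to genes was not used by the rule. GENCODE M21, which is on the same build as the RefSeq table, places the 3p arm within 3 bases of the 3′ end of an annotated intron for 36 of 57 (63.2%), 24 of them exactly at it. The count was 14 of 252 (5.56%) for 3p arms of other miRNAs above 0. Introns end in AG, and 25 of the 57 3p sequences (43.9%) ended in AG, against 20 of 252 (7.94%). Among high-numbered 3p arms listed at 0 in all libraries 143 of 237 (60.3%) lay at an intron's 3′ end, close to the share among the detected ones. Of these 237, 132 (55.7%) ended in AG, a larger share than the 43.9% among the detected ones.

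**Figure D1:**
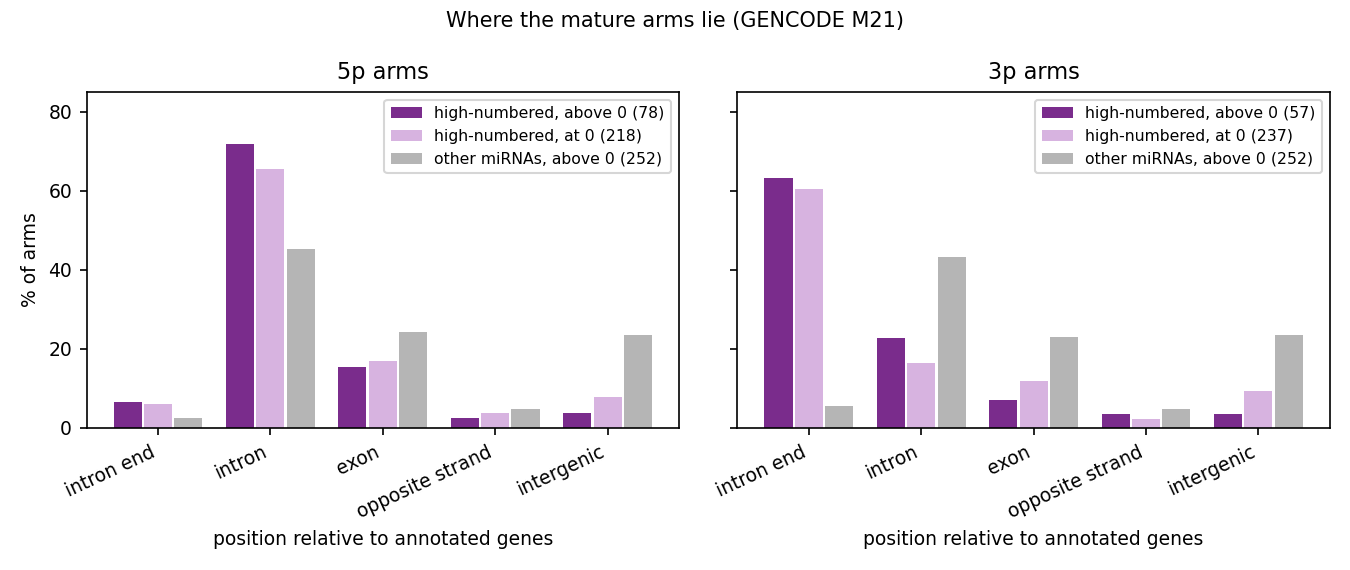
Share of mature 5p arms (left) and 3p arms (right) by position relative to GENCODE M21 genes, for high-numbered miRNAs above 0, high-numbered miRNAs listed at 0 and all other miRNAs above 0; "intron end" means within 3 bases of the end of the intron on the arm's own side, and numbers in brackets are arms. Of the 3p arms, 63.2% and 60.3% in the high-numbered sets lie at an intron end, against 5.56% of the others.

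The 5p arms lay further inside introns. With a distance that was chosen after its values were seen, 57 of 78 5p arms (73.1%) ended within 50 bases of an intron's 3′ end, at a median of 37 bases. The count was 13 of 252 (5.16%) for other miRNAs above 0 and 111 of 218 (50.9%) for high-numbered 5p arms listed at 0. Several of the most abundant members are of this kind. miR-5129-5p (chr2:45023146-45023167, minus strand) ends 41 bases before the end of an intron of Zeb2, a transcription factor of neural development. miR-7066-5p (chr8:70102560-70102581, minus strand) ends 36 bases before the end of an intron of Ncan, which encodes the brain matrix proteoglycan neurocan. miR-7056-5p (chr7:47083203-47083224, minus strand) ends 37 bases before the end of an intron of Ptpn5, a neuronal tyrosine phosphatase. miR-6769b-5p (chr8:71631083-71631102, minus strand) ends 36 bases before the end of an intron of Unc13a, which primes synaptic vesicles. All coordinates are of GRCm38.p6, and the deposited tables carry none.

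At the 5′ end of an intron, 5 of 78 5p arms began at its first base, in introns of 66 to 137 bases. The most abundant was miR-7080-5p (chr8:123130106-123130128, plus strand), in an intron of 67 bases of the copine gene Cpne7, with miR-7080-3p ending 4 bases before the end of the same intron.
miR-7080-3p: cAGGCUCAccccuccguucccu
The other 4 were miR-5617-5p in Syn1 (synapsin, a synaptic vesicle protein), miR-7068-5p in Cherp, miR-7060-5p in Fbrs and miR-6936-5p in Sirt7, at means of 0.479 to 2.51 RPM. A transcript of Cpne7 annotated with this intron retained also holds the whole sequence of both miR-7080 arms.

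The 2 most abundant members were of neither kind. miR-6538 (chr12:26414970-26414988, minus strand) lies inside an intron of Rnf144a, away from its ends, and miR-6240 (chr5:114851973-114851998, plus strand) overlaps no annotated gene. miR-5113 (chr15:80940049-80940071, plus strand) lies in an exon of Tnrc6b, which encodes a partner protein of Argonaute, and its sequence is whole in a protein-coding transcript of that gene. miR-7689-3p (chr5:36301606-36301628, plus strand) and miR-7240-5p (chr8:70798135-70798155, plus strand) lie opposite Sorcs2 and Mast3.

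Sequences held whole in other kinds of RNA were looked for in the GENCODE M21 transcripts with miRNA genes left out. Of the 151 sequences, 30 (19.9%) were found, against 126 of 526 (24.0%) for other miRNAs above 0. The share over all kinds of transcript was thus not higher among the high numbers. A protein-coding transcript held 14 of the 151, a larger share than 25 of the 526. A transcript with a retained intron held 12 of the 151, against 33 of the 526. Among those found were miR-6912-5p (Scamp4), miR-5132-5p (Irak1), miR-6966-5p (Narfl) and miR-7068-5p (Cherp). In 3 cases the transcript was a small noncoding RNA, against 10 of the 526. These 3 are shown because reads from that RNA and from the miRNA cannot be told apart.
miR-6516-5p: uUUGCAGUaacagguguggaca
miR-5121: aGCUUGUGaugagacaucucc
miR-6481: cACUGAAAaugcuuagaug
miR-6516-5p is whole in the scaRNA Gm26083 and in the noncoding transcript Snhg20, and its values were 11.4, 6.01 and 10.9 RPM in CON-BDEV 1 to 3 and 7.88, 6.61 and 8.15 RPM in SE-BDEV 1 to 3. miR-5121 is whole in Snord33, a C/D box snoRNA in an intron of the ribosomal protein gene Rpl13a, at 5.00, 6.63 and 8.21 RPM and at 11.8, 6.41 and 9.63 RPM. For both the groups overlapped. miR-6481 is whole in the mitochondrial tRNA mt-Tf and was at or under 2.07 RPM, with 0 in CON-BDEV 3, SE-BDEV 1 and SE-BDEV 2. miR-6538 and miR-6240 were not found in a transcript of this set, which says only that these letters are not in it.

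Of the high-numbered miRNAs listed, 20.3% were above 0, against 62.4% for numbers below 1000, 39.2% from 1000 to below 3000 and 48.4% from 3000 to below 5000. They held 0.0816% of all RPM on average over the 6 libraries. Their median level, as a mean over the libraries, was 0.951 RPM, against 11.1 RPM for numbers below 1000 and 1.92 RPM from 3000 to below 5000. A mean of 10 RPM or more was reached by 16 and of 1 RPM or more by 82, and 87 lay below 1 RPM. miR-6538 alone held 18.9% of their summed RPM and the 5 most abundant 48.6%. The lowest numbers inside the rule were miR-5100 (mean 3.55 RPM), miR-5104 (0.603) and miR-5113 (24.9), and the highest outside it were miR-3962 (2.36) and the 2 arms of miR-3572 (13.9 for 5p and 0.223 for 3p).

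The 5p arm was the more abundant arm for 16 of the 22 hairpins of which both arms were above 0. The mean was 59.9 RPM for miR-7080-5p and 2.14 RPM for miR-7080-3p, 16.8 and 0.533 RPM for the arms of miR-6769b, and 10.2 and 0.101 RPM for those of miR-6915. The other way round, miR-6900-3p, which ends at the last base of an intron of the respiratory chain gene Ndufa10, was at 7.85 RPM and miR-6900-5p at 1.23 RPM.

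Per library, 73, 90 and 71 of the 169 were above 0 in CON-BDEV 1 to 3 and 83, 54 and 90 in SE-BDEV 1 to 3. The groups thus overlapped, at 78.0 ± 10.4 and 75.7 ± 19.1 miRNAs (SD, n = 3). CON-BDEV 2, SE-BDEV 1 and SE-BDEV 3, with 6749631 reads or more, had the higher counts. CON-BDEV 1, CON-BDEV 3 and SE-BDEV 2, with 6578279 reads or fewer, had the lower ones. Depth did not order the counts inside these sets: SE-BDEV 2 with 4996073 reads had the fewest, and CON-BDEV 1 with 4400167 reads had 73. The part of depth in these counts was not tested. At a level all libraries could show, 0.682 RPM or 3 reads in the shallowest, the counts were 73, 80 and 69 and then 75, 53 and 87. The summed RPM was 1258, 601 and 726 in CON-BDEV 1 to 3 and 838, 757 and 717 in SE-BDEV 1 to 3. CON-BDEV 1 stood above the other 5 libraries, and all 3 SE-BDEV values lay inside the CON-BDEV range.

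**Figure D2:**
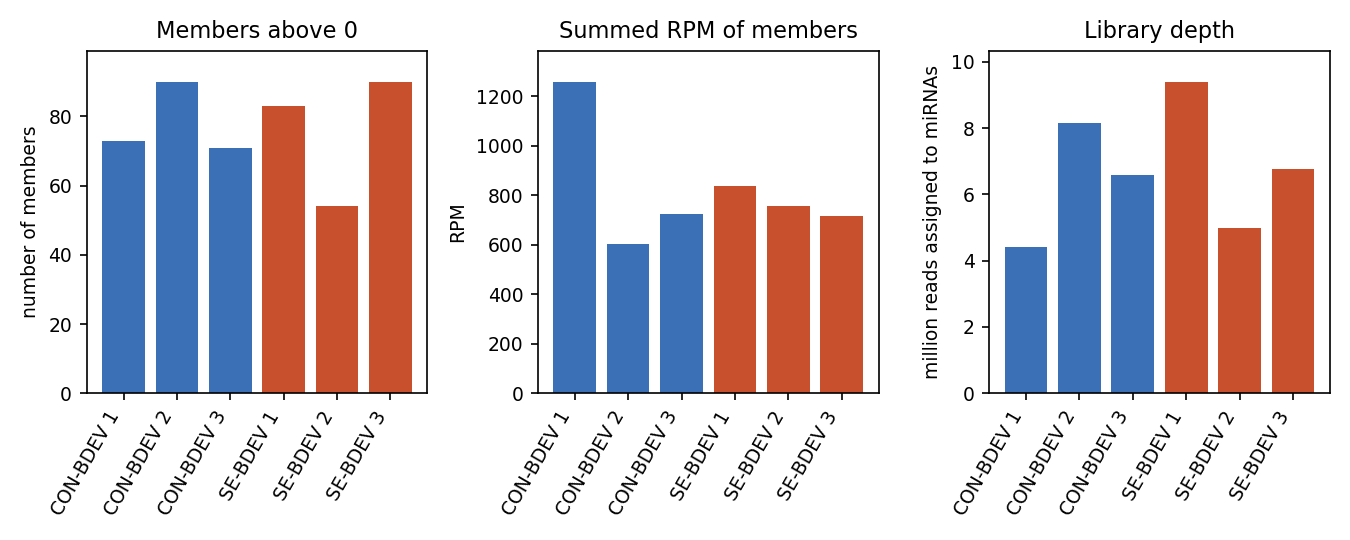
Number of high-numbered miRNAs above 0 (left), their summed RPM (middle) and the depth as reads assigned to miRNAs (right), 1 bar per library, CON-BDEV in blue and SE-BDEV in orange. CON-BDEV 1 has the highest summed RPM (1258) and the lowest depth (4400167 reads).

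Detection was irregular. Of the 169, 72 (42.6%) were above 0 in 1 library alone and 25 (14.8%) in all 6, while for numbers below 1000 these shares were 8.76% and 69.9%. Of the 72, 37 were in a CON-BDEV and 35 in an SE-BDEV library. Zeros were more frequent than among other miRNAs of like level. Between a mean of 3 and 10 RPM 12 of 22 high-numbered miRNAs (54.5%) had a 0 in at least 1 library, against 18 of 102 others (17.6%), and between 10 and 30 RPM 2 of 11 against 4 of 80.

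**Figure D3:**
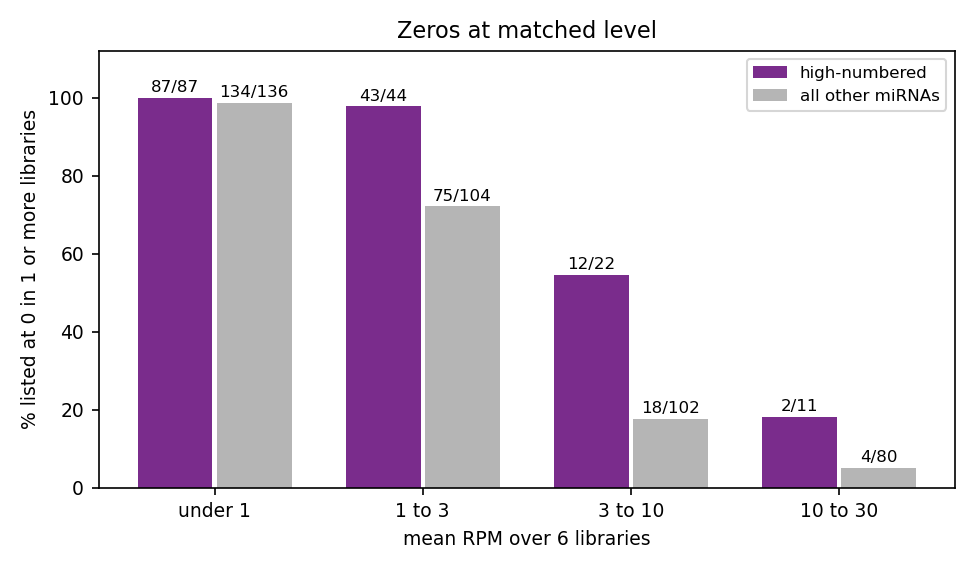
Share of miRNAs listed at 0 in 1 or more libraries, in 4 ranges of mean RPM, for high-numbered miRNAs and all other miRNAs above 0; the counts stand above the bars. From 1 RPM up to 30 RPM the high-numbered miRNAs have the larger share in each range, with 12 of 22 against 18 of 102 between 3 and 10 RPM.

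Many of these zeros stood beside values well above the floor of 3 reads. For 95 of the 169 (56.2%) a library listed 0 where the lowest nonzero value elsewhere would be 10 reads or more at its depth. Among 634 other miRNAs this was so for 107 (16.9%). For miRNAs above 0 in 1 library alone, 72 of the 169, that lowest value is their only one. The measure thus overlaps with the share seen in 1 library. The shares of 56.2% and 16.9% are not matched for level. Under a mean of 1 RPM they were 59.8% against 30.1%, and from 1 to 3 RPM 68.2% against 41.3%. From 3 to 10 RPM they were 50% against 17.6%, and from 10 to 30 RPM 18.2% against 5%. miR-7682-3p was at 12.3 RPM in CON-BDEV 1 and listed at 0 in the other 5, where that level would be up to 115 reads. miR-7084-5p was at 9.78 RPM in SE-BDEV 3 and listed at 0 elsewhere. miR-6970-5p was at 10.5 RPM in both libraries numbered 1 and at 6.82 RPM in SE-BDEV 3, and listed at 0 in the other 3. No library lists a value of 1 read, so a 0 can stand for 1 read or for a value that was set to 0. What produced the zeros was not tested.

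The comparison of the design is SE-BDEV against CON-BDEV. Of the 169 high-numbered miRNAs, 16 had a mean of 10 RPM or more and were tested, and 0 of them changed past an adjusted p of 0.05 by limma (two-sided, log2(RPM + 1), Benjamini-Hochberg over 308 miRNAs). At an unadjusted p under 0.05 there was 1, miR-6240. The background was 3 of 308 miRNAs called (0.974%) and 32 of 308 at an unadjusted p under 0.05 (10.4%). The groups did not overlap for 2 of the 16, both higher in SE-BDEV, where 50 of 308 did not overlap in either direction (16.2%), so the share was not above the background. Markers of other tissues also stood higher in SE-BDEV without overlap: miR-122-5p at 88.7 to 132 RPM against 75.0 to 79.7 RPM, the muscle miR-1a-3p at 119 to 204 against 54.3 to 115 RPM and miR-133a-3p (listed with 133b-3p) at 1.80 to 2.81 against 0 to 1.67 RPM. So did the brain marker miR-129-5p, at 3735 to 4985 against 2720 to 3268 RPM. The limma adjusted p was 0.457 for miR-122-5p and 0.438 for miR-1a-3p and for miR-129-5p. The groups overlapped for miR-206-3p, miR-486a-5p/486b-5p and the brain markers miR-124-3p, miR-9-5p, miR-128-3p, miR-138-5p, miR-219a-2-3p and miR-132-3p. The part of other tissues in the values of the high-numbered miRNAs was not tested.

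**Figure D4:**
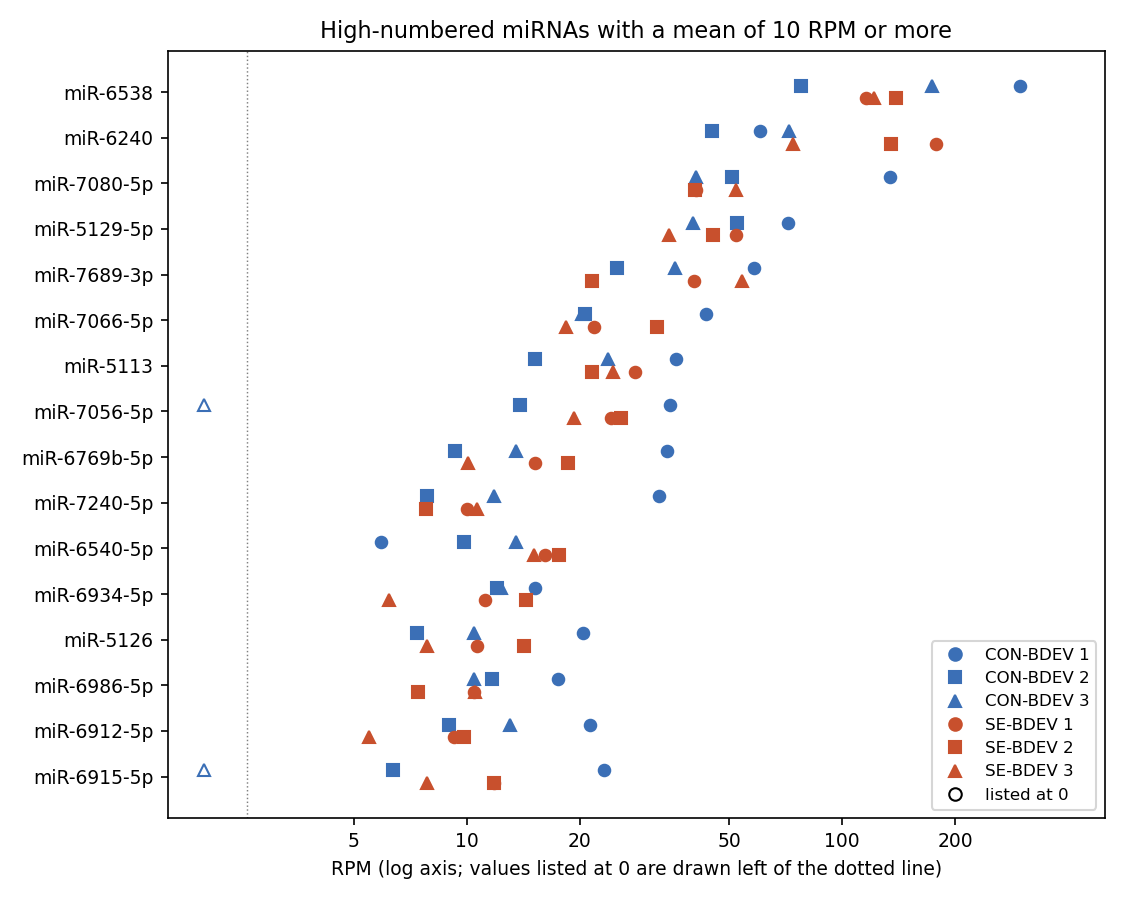
RPM (log axis) of the 16 high-numbered miRNAs whose mean reached 10 RPM, 1 point per library, CON-BDEV in blue above and SE-BDEV in orange below, open symbols for values listed at 0. The CON-BDEV 1 point is the highest in 14 of the 16 rows, and miR-6240 and miR-6540-5p are the rows where the groups do not overlap.

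miR-6240 was at 60.2, 45.0 and 72.1 RPM in CON-BDEV 1 to 3 and at 177, 135 and 74.1 RPM in SE-BDEV 1 to 3. SE-BDEV 1 and 2 lay above all controls, and SE-BDEV 3 was next to CON-BDEV 3. The log2 difference was 1.05 ± 0.36 (SE, limma adjusted p = 0.344), with means of 59.1 ± 13.5 and 129 ± 51.8 RPM (SD, n = 3). With the replicate number as a block it passed (limma adjusted p = 0.0435), and over its 18 alternatives the adjusted p ranged from 0.0435 to 0.753. In the authors' deposited table its log2 fold change was 1.08 with an adjusted p of 0.185.

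miR-6540-5p was at 5.91, 9.82 and 13.5 RPM in CON-BDEV and at 16.2, 17.6 and 15.1 RPM in SE-BDEV. All 3 SE-BDEV values lay above all 3 controls. The log2 difference was 0.75 ± 0.39 (SE, limma adjusted p = 0.445). Without CON-BDEV 1, its lowest library, the difference was 0.46, and with a pseudocount of 10 it was 0.43. Under 18 alternatives the limma adjusted p lay between 0.374 and 0.857.

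miR-7056-5p, from the Ptpn5 intron, was at 34.8, 13.9 and 0 RPM in CON-BDEV and at 24.2, 25.8 and 19.3 RPM in SE-BDEV. The highest and the lowest values were both controls, and the SE-BDEV values lay between them. The log2 difference of 1.56 ± 1.41 (SE, limma adjusted p = 0.735) came with that single 0: without CON-BDEV 3 it was 0.0523. With the replicate block it passed as well (limma adjusted p = 0.0435), but not with the block at a mean of 1 RPM or more (limma adjusted p = 0.677). Between libraries of the same number, SE-BDEV was lower for number 1 and higher for numbers 2 and 3. miR-6915-5p, from an intron of Ankrd52, had the same pattern, with 23.2, 6.38 and 0 RPM in the controls and 11.8, 11.8 and 7.85 RPM in the SE-BDEV libraries, a log2 difference of 1.01 (limma adjusted p = 0.724) and of -0.24 without CON-BDEV 3.

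miR-6538, the most abundant, was at 298, 77.8 and 173 RPM in CON-BDEV and at 116, 139 and 121 RPM in SE-BDEV. The SE-BDEV libraries lay close together inside the wide range of the controls. The log2 difference was -0.35 ± 0.42 (SE, limma adjusted p = 0.782). miR-7080-5p was at 134, 50.9 and 40.7 RPM in CON-BDEV and at 40.7, 40.6 and 52.0 RPM in SE-BDEV. CON-BDEV 1 alone stood out, and the other 5 libraries lay between 40.6 and 52.0 RPM. The log2 difference was -0.56 ± 0.41 (SE, limma adjusted p = 0.653), and -0.0448 without CON-BDEV 1.

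Of the other abundant members, miR-5129-5p was at 71.8, 52.5 and 40.1 RPM in CON-BDEV 1 to 3 and at 52.3, 45.2 and 34.5 RPM in SE-BDEV 1 to 3. miR-7689-3p was at 58.2, 25.2 and 35.9 RPM and at 40.4, 21.6 and 53.9 RPM. miR-7066-5p was at 43.4, 20.6 and 20.2 RPM and at 21.8, 32.0 and 18.4 RPM. The groups overlapped for all 3, with CON-BDEV 1 the highest library of each. miR-5113 was at 36.1, 15.2 and 23.7 RPM and at 28.1, 21.6 and 24.6 RPM. miR-6769b-5p was at 34.1, 9.33 and 13.5 RPM and at 15.2, 18.6 and 10.1 RPM. miR-7240-5p was at 32.5, 7.86 and 11.9 RPM and at 10.0, 7.81 and 10.7 RPM. For these as well the groups overlapped and CON-BDEV 1 was the highest library. miR-6934-5p ranged from 6.22 RPM in SE-BDEV 3 to 15.2 RPM in CON-BDEV 1, again with overlap.

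CON-BDEV 1 held the highest value for 14 of the 16 tested members, all but miR-6240 and miR-6540-5p, against 84 of 292 other tested miRNAs (28.8%). Of the 82 with a mean of 1 RPM or more it held the highest value for 41, against 107 of 370 other miRNAs between 1 and 100 RPM (28.9%). The median log2 difference over the 16 was -0.18, with 5 of 16 above 0, beside 0.0606 and 177 of 308 over all tested. Without CON-BDEV 1 it was 0.22, with 10 of 16 above 0, beside 0.11 over all tested, so the sign of this median rested on that library. CON-BDEV 1 was also the shallowest library and the one with the fewest miRNAs above 0 (532). It held the highest value of miR-486a-5p/486b-5p as well, 199 RPM against 83.6 to 111 RPM elsewhere, with the other 2 blood markers at 0. It also held the highest of miR-206-3p (84.3 RPM), but the lowest of miR-1a-3p (54.3 RPM), miR-122-5p (75.0 RPM) and miR-133a-3p/133b-3p (0 RPM). The part of depth and of other tissues in these values was not tested.

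**Figure D5:**
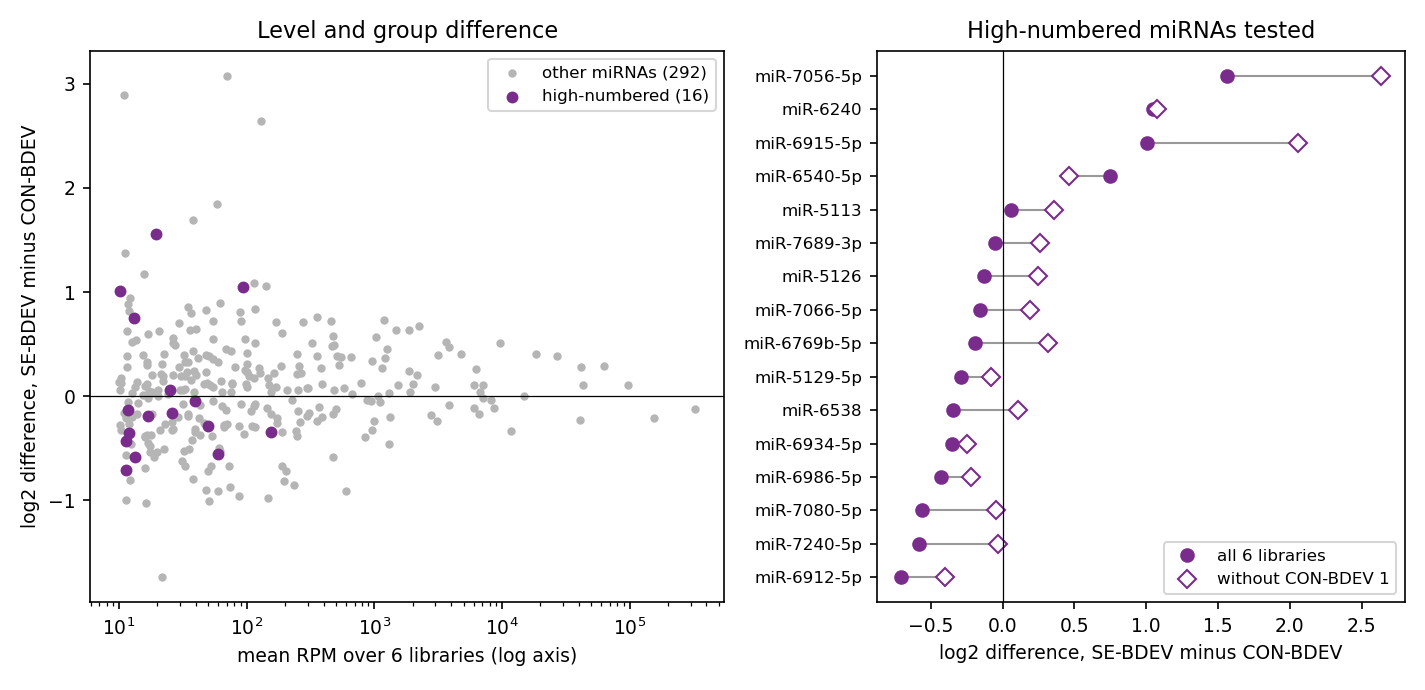
Left, mean RPM (log axis) against the log2 difference SE-BDEV minus CON-BDEV for the 308 tested miRNAs, with the 16 high-numbered ones in purple; right, the log2 difference of those 16 with all libraries (filled) and without CON-BDEV 1 (open). Without CON-BDEV 1 the count above 0 goes from 5 to 10 of 16.

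The authors' deposited table, made with DESeq2, holds all 169, of which 97 have an adjusted p. It gives 1 of them an adjusted p under 0.05, against 7 of 625 miRNAs in all (1.12%), and 7 an unadjusted p under 0.05, against 52 of 797 (6.52%). Of these 7, SE-BDEV was above CON-BDEV for 3 and below it for 4. There 71 of the 169 were higher and 98 lower in SE-BDEV, with a median log2 fold change of -0.36 beside 0.0123 over 803 miRNAs. The split over all 803 was not taken, and this comparison was not refitted without CON-BDEV 1. For 72 of the 169, above 0 in 1 library alone, the direction is set by that library. The fold changes of miRNAs that are at 0 throughout 1 group depend on the fit and are no measure of size.

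The called member was miR-6983-5p, with 6.07, 5.60 and 3.26 RPM in SE-BDEV 1 to 3, together 107 reads, and 0 in each control. Since a listed 0 may be a value that was set to 0, no fold is given against a group at 0. The authors' deposited table gives an adjusted p of 0.00201. Its mean was under 10 RPM, and in limma without that filter its adjusted p was 0.218 (unadjusted p = 0.00108). miR-6983-5p met the rule only through the SE-BDEV libraries, and these p-values rest on the control zeros. They are thus a description and no support for a difference. The other arm, miR-6983-3p, was above 0 in SE-BDEV 1 alone, at 1.28 RPM. miR-12200-3p was the other member above 0 in all SE-BDEV libraries and in no control, at 0.852, 2.80 and 1.04 RPM or 29 reads in all (adjusted p = 0.348 in the authors' deposited table). It too met the rule only through the SE-BDEV libraries, and it lies in an intron of Tmem132b.
miR-12200-3p: uGUGAAUCuccggcgcguuu

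For such patterns the shares over all miRNAs were not taken, so the counts of members are a description only. No member was above 0 in all 3 controls and at 0 in all SE-BDEV libraries. Above 0 in 2 SE-BDEV libraries and in no control was 1 member. Above 0 in 2 controls and in no SE-BDEV library were 6 members, so that a control and the SE-BDEV libraries shared the zero. miR-6926-3p was above 0 in CON-BDEV 1 and 3 (0.909 and 0.912 RPM) and the other 5 in CON-BDEV 1 and 2, miR-7015-5p and miR-7235-3p among them at or under 3.86 RPM. miR-7668-3p was at 18.0 and 7.24 RPM in CON-BDEV 1 and 2, miR-7044-5p at 9.55 and 3.81 RPM and miR-6997-5p at 7.05 and 3.19 RPM, with adjusted p of 0.0512, 0.187 and 0.289 in the authors' deposited table. In all 3 CON-BDEV 1 held more than CON-BDEV 2. All 3 met the rule only through the controls, so their p-values are a description as well. miR-7668-3p lies opposite the zinc finger gene Zfp27, miR-7044-5p in an intron of Rasgef1a and miR-6997-5p in an intron of Sptan1, a gene of non-erythroid spectrin.
miR-7668-3p: cGGUGCAGgggauucagaggag
miR-7044-5p: gUGUGGUGgugguggcggc
miR-6997-5p: uAACAGGCuggagaggugcaga

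miR-7046-3p, which ends at the last base of an intron of 77 bases of Rabac1, was at 4.55, 1.47 and 2.13 RPM in CON-BDEV and at 0.532, 0 and 0 RPM in SE-BDEV. All controls lay above all SE-BDEV libraries, at levels of 20 reads or fewer. The authors' deposited table gives a log2 fold change of -3.89 with an adjusted p of 0.428. The groups also did not overlap for other members with a mean under 10 RPM. Among them were miR-7073-5p, lower in SE-BDEV, and miR-8111 and miR-7213-5p, higher in SE-BDEV. The share of miRNAs without overlap at this level was not taken.
miR-7046-3p: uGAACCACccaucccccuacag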

How the data were processed

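Per the labels' protocols, RNA was taken up with the miRNeasy Micro Kit and sequenced with the QIAseq miRNA kit. The authors deposited RPM values for 6 libraries. A further table deposited by the authors holds their comparison as a mean signal, log2 fold changes, p-values and a score. DESeq2 and mm9 are named in the submitters' processing notes. No aligner, counter or use of molecular identifiers is named there. RPM values were whole multiples (tolerance 0.001 step) of a step taken as 1 read, with 2 reads the smallest value listed. Depths and floors of 3 reads come from this step and cover counting error only. No count model was fitted, because values of 1 read are missing.

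limma 3.58.1 (R 4.3.3, statmod 1.5.0) was run on log2(RPM + 1) where the mean reached 10 RPM, with trend and robust empirical Bayes. This scale understates changes of low miRNAs. limma was also tried on simulated data, with changes put into the more abundant miRNAs only and no isolated zeros modelled. That trial does not show how limma does on low members or on members with a single 0. Sequences come from RefSeq (GRCm38.p6) and gene positions from GENCODE M21, joined by miRNA name, since the deposited tables carry no coordinates. Figures used matplotlib 3.10.9. Members and lists were chosen with earlier results of these data known. Named by rule were the 4 members given in the selection, the 12 of highest mean, those called by limma or in the authors' deposited table, those with an unadjusted limma p under 0.05, those above 0 in all libraries of 1 group and none of the other, those sharing a seed, and the 8 most abundant found whole in another RNA. Further members (among them miR-6481, miR-6926-3p, miR-7015-5p, miR-7235-3p, miR-6900-3p, miR-6915-5p, miR-6970-5p, miR-6997-5p, miR-7044-5p, miR-7046-3p, miR-7084-5p and miR-7682-3p) were named after their values were seen.

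The groups share replicate numbers, and the labels do not say that these mark pairs. Correlations of deviations from the group means were 0.216, 0.202 and 0.462 for the numbers 1, 2 and 3, above the bound for treating them as pairs, but -0.0639, -0.0614 and -0.0806 without miR-24-3p. Over the 16 tested members alone they were -0.19, 0.13 and 0.0529. Over all tested miRNAs, unlike numbers gave 0.336 for CON-BDEV 2 with SE-BDEV 1 and 0.200 for CON-BDEV 1 with SE-BDEV 2. Unlike numbers that included a library numbered 3 gave -0.41 to -0.27. Blocked values are given where they change a call. Alternatives covered pseudocounts, filters, scaling, the block and leaving out libraries.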

Additional observations from a re-analysis of the deposited data

How the results depend on the processing

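Against 0 tested members called, the count was 2 with the replicate block, miR-6240 and miR-7056-5p, and 0 in the other 17 alternatives. With the block it was 0 again at a mean of 1 RPM or more and over miRNAs above 0 in all libraries, settings chosen after seeing the data. The cause was not tested. Leaving out 1 library gave 0 called members each time. It gave log2 differences of -0.86 to 0.11 for miR-6538, of -0.24 to 2.06 for miR-6915-5p and of -0.37 to 0.22 for the median over the tested members. Without both libraries numbered 3, miR-6915-5p was at -0.0603. Counts of members at or above 10 RPM averaged 17.7 in CON-BDEV and 16.7 in SE-BDEV, and without miR-6538 the summed RPM of SE-BDEV was 645. The summed RPM of CON-BDEV was 664 to 992 when 1 library was left out, the lowest without CON-BDEV 1. Median-of-ratios scaling moved the median difference of all tested miRNAs by -0.0706 (log2). Depth limits members whose values lie near 2 reads, the smallest listed, since a 0 and a lower level cannot be told apart there. Over all 308 tested miRNAs the count called was 3, and 10 with the replicate block. The planned edgeR and DESeq2 fits were not run, because values of 1 read are missing and the values were not taken as counts.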
